A study of Mus musculus with 21 samples.

Results

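The genes described here carry cells through mitosis and separate their chromosomes. The list names 46 genes, from the cyclins and kinases that start division to the motors and scaffolds that cut the cell in 2, and 40 of them had a probe set annotated to 1 gene, out of 8251 genes measured in all. The other 6 (Cenpf, Bub1b, Ccnb1, Cdc25b, Espl1 and Hmmr) were not analysed here. The cells are B16-F10, a melanoma line of C57BL/6J mice grown in RPMI medium with 10% serum, and their RNA was read on 21 Affymetrix U74Av2 arrays. Each value is a log2 RMA value, an expression level on a log2 scale, so a difference of 1 unit is a 2-fold change. Cells at 21% oxygen were the controls, for a time the labels do not give. Other cells spent 24 h at 1% oxygen. A closed chamber served for 3 of these arrays, with 2 controls. An incubator with regulated oxygen flow served for experiments 1 and 2, each with 3 hypoxia arrays and 2 controls. In experiment 3 the cells received cobalt chloride (CoCl2), a chemical mimic of hypoxia, for 24 h at 100 µM (2 arrays) or 200 µM (2 arrays), with 2 controls. The chamber controls were assigned to the chamber by their titles, which carry no experiment number. The labels call the arrays of a group biological replicas but do not say that each had a culture of its own, and the p-values rest on the spread among the arrays alone.

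Entry into mitosis is set by cyclin A2 and the B-type cyclins with the kinase Cdk1, and Foxm1 is a transcription factor that drives many genes of the G2 and M phases. Condensins and topoisomerase II shape the chromosomes, kinetochores built on Cenpa attach them to the spindle, and the spindle checkpoint holds back the anaphase-promoting complex until every chromosome is attached. Transcripts of most of these genes are made in dividing cells and are low in resting cells, which is why Mki67 (the Ki-67 protein) is used as a marker of proliferation in tumours such as melanoma. Many of their promoters hold a short element called CHR (cell cycle genes homology region), often near CCAAT boxes that bind NF-Y. The CHR binds the DREAM and MuvB complexes.

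Across all libraries, array medians lay between 5.44 and 5.53, and the arrays' number limits the precision. Melanocyte markers were high in every array outside CoCl2, with a summed level of 13.38 to 13.69 on the log2 scale over 9 measured markers, led by Pmel. With CoCl2 the sum was 10.52 to 12.19, and 8 of the 9 markers fell and Ednrb rose. Of the other lists, 1 of 6 leukocyte, 2 of 7 fibroblast, 1 of 6 endothelial and 4 of 6 epithelial markers rose with CoCl2, and none fell, where 23.3% of all genes rose and 23% fell. In each hypoxia set the summed melanocyte level of every hypoxia array lay below that of both controls, for example 13.47 to 13.50 against 13.64 in experiment 2. On the hypoxia mean Pmel (-0.24), Gpr143 (-0.95) and Kit (-0.22) fell and Mitf rose (0.89). Leukocyte, fibroblast, endothelial and epithelial markers had sums of at most 9.49 in any array. Ptprc, Tek and Epcam were near the low end of the scale (percentiles 9, 3 and 3.7 of the mean levels of all genes). Other markers of these lists were not. Col1a2 stood at percentile 87, Col1a1 at 69.7, Cd14 at 67.4, Cdh1 at 66.4 and Pecam1 at 53.5. The 3′ minus 5′ signal of Actb, a measure of RNA quality, ranged from 0.15 to 0.50 over the 15 chamber, experiment 1 and experiment 2 arrays. Controls of experiment 3 had 1.41 and 1.62, the 100 µM arrays 2.16 and 2.36, and the 200 µM arrays 0.50 and 1.47. Experiment 3 stands apart from the other sets in this measure, in its controls too, except for the 200 µM array at 0.50. The same signal of Gapdh was 2.21 and 0.92 in the controls of experiment 3, 1.44 and 2.18 at 100 µM and 0.45 and 0.12 at 200 µM. In the other sets it ranged from 0.07 to 0.52. On Gapdh both 200 µM arrays thus lay below their own controls, and on Actb the array at 0.50 did. Both 100 µM arrays lay above these controls on Actb.

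Promoter windows of 300 bases (250 before to 50 after the annotated start, RefSeq, build GRCm38.p6) were found for 32 of the 40 measured genes. A CHR form, TTTGAA or TTCGAA on either strand, stood in the window of 24 of these 32 genes (75%), against 17.5% of the 6576 genes on the array with a window and 21.7% of all 27025 genes with one. CCAAT on either strand stood in 25 (78.1%), against 42.5% and 41.1%, and 22 genes (68.8%) held both, against 7.22% and 8.61%. A CHR form in the last 100 bases, a count chosen after the positions were seen, was present in 22 of the 32 (68.8%) and in 4.79% of genes on the array. These matches are letters in a window and not sites shown to be bound. The windows below belong to the 6 genes with the deepest fall under CoCl2 among those with a CHR form and are shown because the genes moved together. They are written 5′ to 3′ on the gene's strand, with the CHR forms in capitals.
Mki67 (chr7:135716330-135716629, minus strand): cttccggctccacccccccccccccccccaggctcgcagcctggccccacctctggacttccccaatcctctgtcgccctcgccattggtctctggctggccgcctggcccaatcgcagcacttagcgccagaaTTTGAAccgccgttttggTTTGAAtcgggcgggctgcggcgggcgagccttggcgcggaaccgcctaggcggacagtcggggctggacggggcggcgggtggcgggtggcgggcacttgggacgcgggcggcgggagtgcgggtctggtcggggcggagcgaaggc
Top2a (chr11:99024140-99024439, minus strand): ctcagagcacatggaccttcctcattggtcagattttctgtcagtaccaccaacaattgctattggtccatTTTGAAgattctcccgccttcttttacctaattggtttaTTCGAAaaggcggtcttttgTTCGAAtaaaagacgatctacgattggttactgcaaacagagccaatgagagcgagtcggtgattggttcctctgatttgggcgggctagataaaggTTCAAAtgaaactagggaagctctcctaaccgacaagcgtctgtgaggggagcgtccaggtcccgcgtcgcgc
Smc2 (chr4:52438971-52439270, plus strand): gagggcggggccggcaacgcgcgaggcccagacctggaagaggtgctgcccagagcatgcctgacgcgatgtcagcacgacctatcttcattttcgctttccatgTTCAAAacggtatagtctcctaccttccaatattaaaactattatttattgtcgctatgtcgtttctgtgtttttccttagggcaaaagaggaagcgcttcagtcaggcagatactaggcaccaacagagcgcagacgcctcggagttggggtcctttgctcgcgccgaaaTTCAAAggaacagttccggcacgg
Kif23 (chr9:61946750-61947049, minus strand): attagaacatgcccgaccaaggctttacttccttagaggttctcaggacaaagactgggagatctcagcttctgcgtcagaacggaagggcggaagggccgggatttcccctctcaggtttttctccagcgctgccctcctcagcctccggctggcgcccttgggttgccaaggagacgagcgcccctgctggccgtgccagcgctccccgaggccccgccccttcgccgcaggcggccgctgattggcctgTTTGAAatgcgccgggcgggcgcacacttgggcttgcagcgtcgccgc
Ect2 (chr3:27153829-27154128, minus strand): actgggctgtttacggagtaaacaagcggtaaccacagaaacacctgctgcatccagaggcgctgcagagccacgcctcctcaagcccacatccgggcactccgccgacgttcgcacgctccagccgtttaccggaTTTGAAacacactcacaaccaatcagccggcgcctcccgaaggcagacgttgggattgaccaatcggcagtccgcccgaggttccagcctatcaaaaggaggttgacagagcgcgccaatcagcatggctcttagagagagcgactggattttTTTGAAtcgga
Racgap1 (chr15:99651607-99651906, minus strand): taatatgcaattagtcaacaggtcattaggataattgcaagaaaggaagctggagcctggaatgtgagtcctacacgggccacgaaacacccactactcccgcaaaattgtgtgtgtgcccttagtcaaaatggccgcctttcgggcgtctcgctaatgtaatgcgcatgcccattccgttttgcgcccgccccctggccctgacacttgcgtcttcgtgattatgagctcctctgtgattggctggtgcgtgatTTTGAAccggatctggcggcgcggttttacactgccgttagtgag

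The CHR forms of Kif23 and Racgap1 began 3 and 6 bases from the start, counted with the start base as 1. That of Mki67 nearest to the start began at -98, where minus marks bases before the start. Top2a held 4 such matches and 6 CCAAT boxes, and Smc2 and Ect2 held 2 CHR matches each, with the nearest at 27 and 40. No CHR form was found in the windows of Nusap1, Birc5, Mad2l1, Nek2, Tacc3, Cks2, Cenpe and Pttg1, of which the first 6 fell with CoCl2 by more than 2 log2 units.

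The first question was what the mimic CoCl2 did to these genes in 4 treated arrays and 2 controls. Averaged over both doses, 38 of the 40 genes fell, none rose, and Cenpe and Ube2c did not pass. Over all 8251 genes 23% were called lower and 23.3% higher at an adjusted p under 0.05 (limma). The median change of the 40 genes was -2.24 log2 units, beside 0.12 over all genes. Falls of at least 2-fold were seen for 33 of the 40 (6.57% of all genes), of at least 4-fold for 24 (1.18%) and of at least 8-fold for 9 (0.194%). For 38 genes every CoCl2 array lay below both controls, as it did for 20.9% of all genes. In 32 genes the 4 CoCl2 arrays lay below all 17 other arrays of the study, against 5.58% of all genes. In bulk RNA, fewer dividing cells and less of a transcript per cell cannot be told apart. Melanocyte markers and the Actb 3′ minus 5′ signal differed between the CoCl2 and control arrays as given above, and the part of the former was not tested. With the Actb signal as a covariate 37 genes were called, all lower. That fit takes the slope of the covariate from the spread within groups, which is widest between the 200 µM arrays (0.50 and 1.47). It cannot separate RNA quality from CoCl2 where the groups differ in both.

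Among the chromosome structure genes, all 6 fell, and they included the 2 deepest falls of the list. Mki67 read 8.55 and 8.29 in the controls of experiment 3, 4.34 and 4.94 at 100 µM and 3.78 and 3.40 at 200 µM. This is a fall of 4.30 ± 0.17 log2 units (SE; 19.8-fold; adjusted p = 5.0e-14), and the treated arrays lie far below the controls with no overlap. Top2a encodes topoisomerase II alpha, which untangles sister DNA. Top2a read 9.07 and 8.73 in the controls of experiment 3, 5.26 and 5.55 at 100 µM and 4.59 and 4.41 at 200 µM, a change of -3.95 ± 0.14 log2 units (SE; adjusted p = 3.7e-15). Smc2, the ATPase core of both condensins, read 8.71 and 8.48 in controls, 4.91 and 5.46 at 100 µM and 5.71 and 5.54 at 200 µM, and changed by -3.19 ± 0.16 log2 units (SE; adjusted p = 1.1e-12). Its partner Smc4 fell by 1.41 and the chromosome-bound kinesins Kif4 and Kif22 by 2.50 and 1.37.

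**Figure D1:**
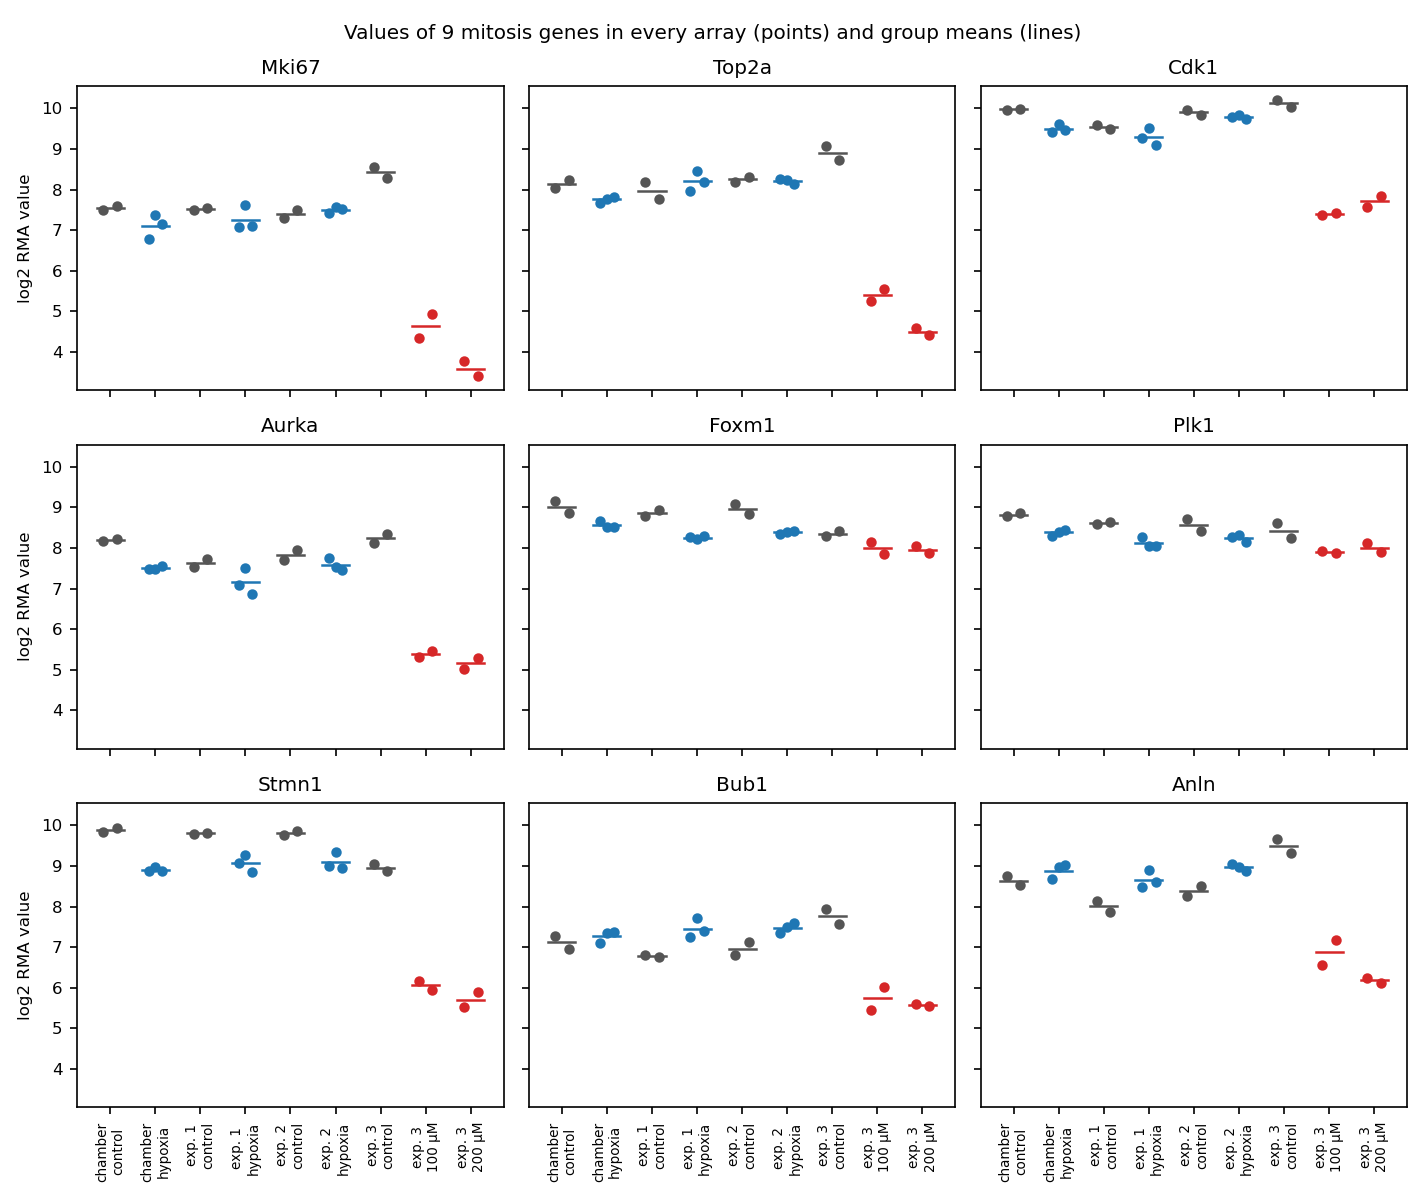
Log2 RMA value (vertical axis, same scale in each panel) of 9 genes in the 9 groups (horizontal axis), with 1 point per array and a line at each group mean; grey is control, blue hypoxia and red CoCl2. The red points of Mki67, Top2a, Cdk1, Aurka, Stmn1, Bub1 and Anln lie below every other point of their panel with a wide gap, and those of Foxm1 and Plk1 lie close to the other arrays.

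The genes of mitotic entry fell too, all 7 that were measured. Ccnb2 read 10.38 and 10.36 in the controls of experiment 3, 7.88 and 8.29 at 100 µM and 7.0 and 6.46 at 200 µM. The fall of this B-type cyclin was 2.96 ± 0.13 (adjusted p = 1.4e-13), with the lowest values at the higher dose. Cdk1 read 10.21 and 10.03 in the controls of experiment 3, 7.38 and 7.42 at 100 µM and 7.57 and 7.85 at 200 µM, a change of -2.56 ± 0.11 log2 units (SE; adjusted p = 1.0e-13), so the kinase that both cyclin types activate was also lower in every treated array. Cks2 and Cks1b, small proteins bound to Cdk1, fell by 2.26 and 1.61, the phosphatase Cdc25c by 2.06, and cyclin A2 (Ccna2) by 1.83. Foxm1 was the exception in size. Foxm1 read 8.29 and 8.41 in the controls of experiment 3, 8.15 and 7.85 at 100 µM and 8.04 and 7.87 at 200 µM. Its change was -0.37 ± 0.11 log2 units (SE; adjusted p = 0.01), and it lost its call without control array 2 (-0.31, adjusted p = 0.1) and under quantile normalisation (adjusted p = 0.22).

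Mitotic kinases and the centrosome followed, with falls in all 4 genes. Aurka read 8.11 and 8.36 in the controls of experiment 3, 5.32 and 5.47 at 100 µM and 5.03 and 5.30 at 200 µM. Aurka, the kinase of centrosomes and spindle poles, changed by -2.96 ± 0.14 log2 units (SE; adjusted p = 3.8e-13). Nek2, a kinase that splits the centrosome pair, read 8.17 and 8.00 in controls, 5.50 and 5.88 at 100 µM and 5.52 and 5.67 at 200 µM, a fall of 2.44. Tacc3, a spindle protein bound by Aurka, fell by 2.23. Plk1 changed far less on the probe set used (-0.47 ± 0.12; adjusted p = 0.0024), with values of 8.62 and 8.24 in controls, 7.92 and 7.88 at 100 µM and 8.12 and 7.90 at 200 µM. Its call was lost without control array 1 (-0.28, adjusted p = 0.14). The other probe sets of Plk1 fell by 1.07 and 1.33 (adjusted p = 7.7e-07 and 1.1e-06); both match a sequence family.

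The 3 genes of the chromosomal passenger complex, which corrects faulty spindle attachments, fell by different amounts. Birc5 read 8.30 and 8.40 in the controls of experiment 3, 5.45 and 5.53 at 100 µM and 5.11 and 4.91 at 200 µM. Birc5 (survivin) changed by -3.10 ± 0.10 log2 units (SE; adjusted p = 3.7e-15), and its treated values do not overlap the controls. The kinase Aurkb read 8.35 and 8.25 in controls, 6.74 and 6.51 at 100 µM and 6.56 and 6.87 at 200 µM. It fell by 1.63 and the scaffold Incenp by 1.2. At the centromere, the histone H3 variant Cenpa read 7.72 and 7.59 in controls, 5.51 and 5.46 at 100 µM and 5.73 and 5.16 at 200 µM, a change of -2.19 ± 0.15 log2 units (SE; adjusted p = 1.7e-10). The microtubule-depolymerising kinesin Kif2c read 6.75 and 6.32 in controls, 4.91 and 4.94 at 100 µM and 4.66 and 4.42 at 200 µM, a fall of 1.80. Cenpe, a kinetochore motor, read 3.32 and 3.25 in controls, 3.32 and 2.99 at 100 µM and 3.70 and 3.15 at 200 µM and did not pass (0.00, 95% interval -0.35 to 0.35). Its mean level over all arrays was 3.36, in the lowest 11.5% of genes.

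All 4 measured spindle checkpoint genes fell. Mad2l1 read 9.35 and 9.15 in the controls of experiment 3, 6.06 and 6.71 at 100 µM and 6.35 and 6.32 at 200 µM. Mad2l1, the checkpoint's inhibitor of Cdc20, changed by -2.89 ± 0.15 log2 units (SE; adjusted p = 1.1e-12). The checkpoint kinase Bub1 read 7.94 and 7.58 in controls, 5.46 and 6.03 at 100 µM and 5.59 and 5.56 at 200 µM, a change of -2.10 ± 0.16 log2 units (SE; adjusted p = 4.9e-10). The kinase Ttk, which starts checkpoint signalling, fell by 1.81 and the kinetochore adaptor Bub3 by 0.95, the smallest fall of the 4. Of the 3 measured anaphase genes, Cdc20, the activator of the anaphase-promoting complex, fell by 2.90 ± 0.12 (values 9.81 and 9.94 in controls, 6.79 and 7.01 at 100 µM, 7.18 and 6.92 at 200 µM). Securin (Pttg1) read 8.14 and 8.28 in controls, 8.02 and 7.76 at 100 µM and 7.97 and 8.09 at 200 µM, a fall of 0.25 (adjusted p = 0.047). That call was lost without either control, without 100 µM array 2 and without 200 µM array 1 (adjusted p from 0.073 to 0.28), and under 9 of the other settings. The ubiquitin-conjugating enzyme gene Ube2c read 6.42 and 6.53 in controls, 6.35 and 6.44 at 100 µM and 6.68 and 6.46 at 200 µM. It did not pass (0.00, 95% interval -0.22 to 0.23). Ube2c had 1 probe set, which read 6.33 to 6.74 over all arrays of the study. Whether this set follows the transcript was not tested.

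In the spindle group all 4 measured genes fell. Nusap1 read 8.42 and 8.27 in the controls of experiment 3, 5.22 and 5.62 at 100 µM and 5.15 and 4.77 at 200 µM. Nusap1, which bundles microtubules near chromosomes, changed by -3.15 ± 0.14 log2 units (SE; adjusted p = 1.2e-13). Stmn1 (stathmin), which destabilises microtubules, read 9.04 and 8.88 in controls, 6.16 and 5.95 at 100 µM and 5.52 and 5.88 at 200 µM, a change of -3.08 ± 0.13 log2 units (SE; adjusted p = 6.1e-14). The motor Kif11, which pushes spindle poles apart, fell by 2.60. The minus-end motor Kifc1 fell by 0.44 (adjusted p = 0.013), a call lost without control array 1 (-0.34, adjusted p = 0.16), on a probe set that matches a sequence family. Foxm1, Plk1 and Kifc1 each lost the call too with only the arrays of experiment 3 in the model (adjusted p = 0.12, 0.064 and 0.056), and Plk1 and Kifc1 under quantile normalisation (0.051 and 0.14).

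Cytokinesis genes fell as a block, by 1.92 to 3.16 log2 units in all 6 genes. Kif23 read 9.01 and 8.99 in the controls of experiment 3, 5.78 and 6.08 at 100 µM and 6.05 and 5.44 at 200 µM. Kif23 and Racgap1 form the centralspindlin complex of the cell midzone, and they changed by -3.16 ± 0.14 log2 units (SE; adjusted p = 9.6e-14) and -3.07 ± 0.11. Ect2 read 8.24 and 8.41 in the controls of experiment 3, 4.78 and 5.42 at 100 µM and 5.42 and 5.05 at 200 µM, a change of -3.16 ± 0.14 log2 units (SE; adjusted p = 1.2e-13) for this activator of the GTPase RhoA. The ring scaffold anillin (Anln) fell by 2.97, the midzone bundler Prc1 by 2.42 and the midzone motor Kif20a by 1.92. None of these treated arrays overlapped its controls.

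**Figure D2:**
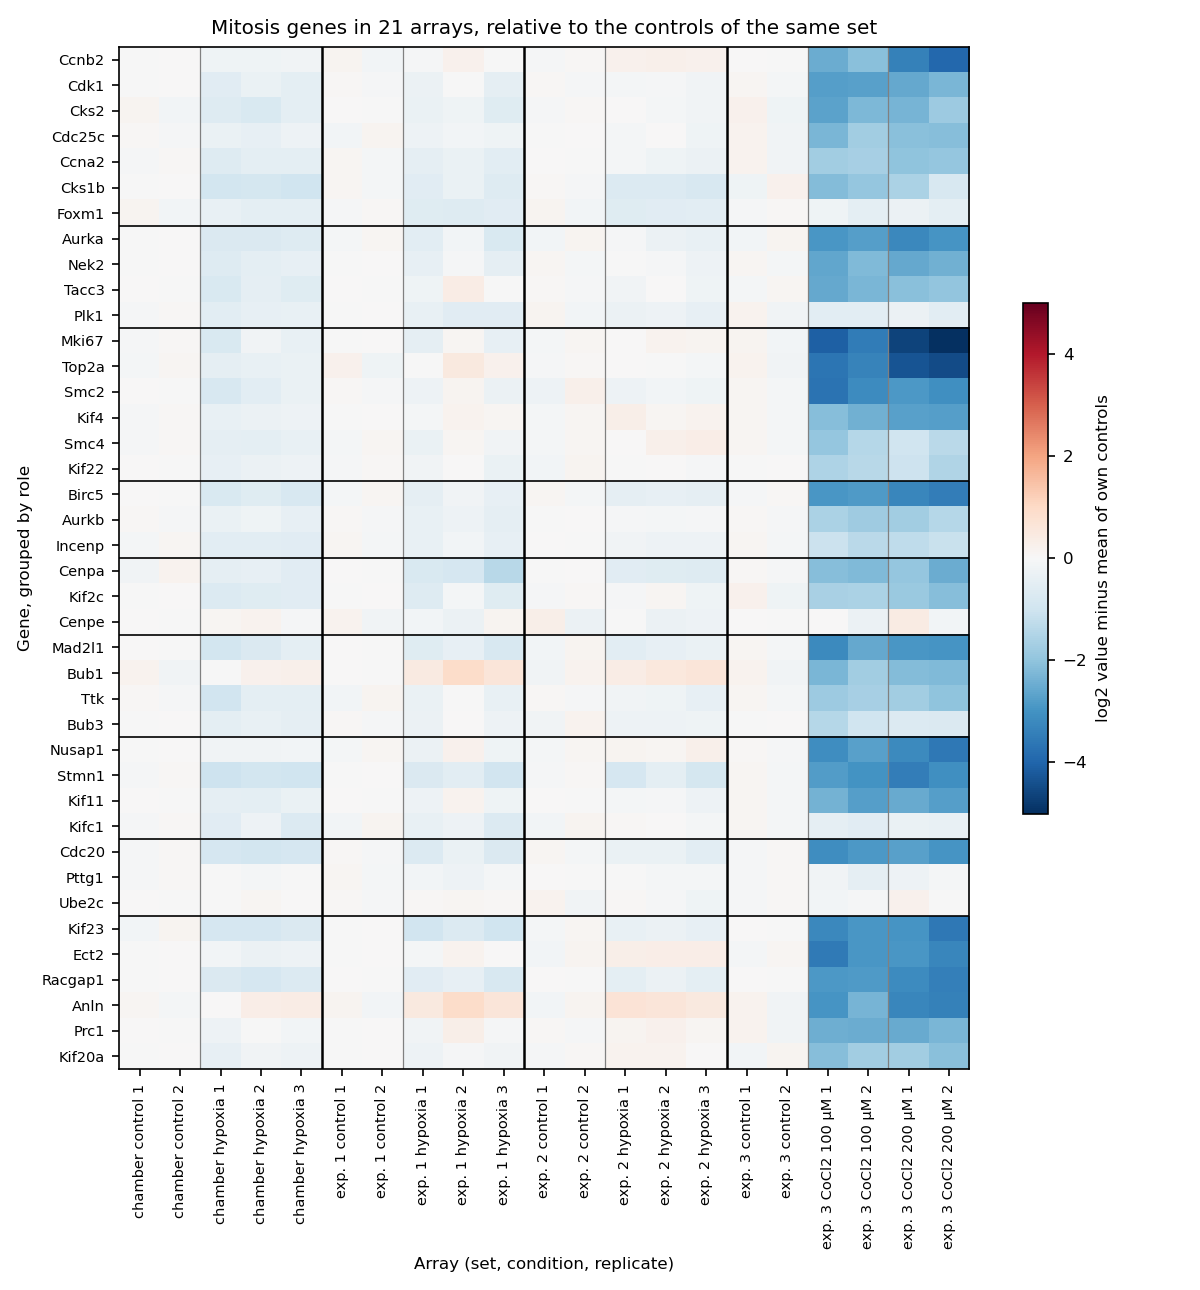
Heat map of 40 mitosis genes (rows, grouped by role with black lines between roles) in 21 arrays (columns, black lines between sets). Colour is the log2 value minus the mean of the controls of the same set, blue for lower. The 4 CoCl2 columns are blue in nearly all rows, the hypoxia columns are pale blue, palest in experiment 2, and Bub1 and Anln are pale red in hypoxia.

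The doses were close for the list as a whole. At 100 µM 38 genes fell (median -2.27; 20.7% of all genes lower), and at 200 µM 36 fell (median -2.20; 22.3% of all genes). Both doses share their control arrays. Between the doses themselves, 7 genes were lower at 200 µM and 3 were higher, and the median difference was -0.04 (all genes: 8.85% lower and 7.83% higher). Lower at 200 µM were Ccnb2 (-1.36 ± 0.15, adjusted p = 4.1e-06), Mki67 (-1.05), Top2a (-0.90), Anln (-0.69), Birc5 (-0.48), Kif4 (-0.47) and Racgap1 (-0.42). Higher at 200 µM, that is with a smaller fall, were Cks1b (0.86 ± 0.18, adjusted p = 0.0022), Smc4 (0.52) and Bub3 (0.50). Cks1b read 8.08 and 8.48 in controls, 6.11 and 6.37 at 100 µM and 6.71 and 7.49 at 200 µM, with the last array nearest to the controls. These 10 calls moved with the settings. The number called was 0 (1.87% of all genes) with the Actb signal as a covariate, 1 (2.93% of all genes) with array weights, 1 (1.19% of all genes) with only the CoCl2 arrays in the model and 4 (7.65% of all genes) without 200 µM array 2.

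Low oxygen itself changed the same genes far less (9 hypoxia and 6 control arrays). As the mean of the chamber set and experiments 1 and 2, 25 of the 40 genes fell, Anln and Bub1 rose, and 13 did not pass (19.5% of all genes lower, 12.6% higher). Averaged over experiments 1 and 2 alone, a choice added after the data were seen, 13 fell and the same 2 rose (26.7% of all genes called in either direction). With all 3 sets the median change was -0.28 log2 units, beside 0.01 over all genes, and no gene of the list fell by 2-fold on this mean. The deepest fall was that of Stmn1. Stmn1 read 9.82 and 9.94 in the chamber controls against 8.87, 8.97 and 8.87 in chamber hypoxia, 9.79 and 9.82 against 9.08, 9.26 and 8.84 in experiment 1, and 9.77 and 9.87 against 9.00, 9.33 and 8.95 in experiment 2. Hypoxia arrays lay below the controls in each set, and the mean change was -0.82 ± 0.08 log2 units (SE; adjusted p = 3.4e-08). In 13 genes every hypoxia array lay below both controls of its own set in all 3 sets, against 12.3% of all genes. These were Kif23, Cenpa, Plk1, Aurkb, Mad2l1, Ccna2, Cdc20, Incenp, Birc5, Racgap1, Cks1b, Foxm1 and Stmn1. Melanocyte markers also moved in these sets, as given above, and their part was not tested. The Actb 3′ minus 5′ signal was lower in hypoxia in experiment 1 (0.15 to 0.25 against 0.33 to 0.35), higher in experiment 2 (0.24 to 0.43 against 0.22 in both controls) and overlapping in the chamber. With the Actb signal or the Gapdh signal as a covariate 27 genes were called. Such fits take the slope of the covariate from the spread within groups and cannot separate RNA quality from hypoxia.

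By role, hypoxia lowered 6 of 7 entry genes, with Ccnb2 (0.02) not passing. Cks1b read 9.51 and 9.52 in the chamber controls against 8.62, 8.62 and 8.51 in chamber hypoxia, 9.42 and 9.22 against 8.77, 8.97 and 8.66 in experiment 1, and 9.42 and 9.28 against 8.67, 8.67 and 8.55 in experiment 2. Cks1b changed by -0.72 ± 0.10 log2 units (SE; adjusted p = 2.9e-06). Foxm1 read 9.16 and 8.86 in the chamber controls against 8.66, 8.52 and 8.51 in chamber hypoxia, 8.79 and 8.94 against 8.26, 8.22 and 8.29 in experiment 1, and 9.08 and 8.83 against 8.35, 8.39 and 8.41 in experiment 2. Its change was -0.54 ± 0.07 log2 units (SE; adjusted p = 1.3e-06), with no overlap in any set. Cdk1 fell by 0.28 (adjusted p = 0.003), Ccna2 by 0.38, Cks2 by 0.37 and Cdc25c by 0.21. The call of Cdc25c was lost without 11 of the 15 arrays taken 1 at a time, and with the replicate block (adjusted p = 0.11).

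All 4 kinase and centrosome genes fell in hypoxia, led by Aurka and Plk1. Aurka read 8.17 and 8.21 in the chamber controls against 7.49, 7.49 and 7.57 in chamber hypoxia, 7.54 and 7.73 against 7.10, 7.51 and 6.86 in experiment 1, and 7.70 and 7.94 against 7.75, 7.52 and 7.47 in experiment 2, a mean change of -0.47 ± 0.09 log2 units (SE; adjusted p = 0.00018). Plk1 read 8.78 and 8.86 in the chamber controls against 8.30, 8.40 and 8.45 in chamber hypoxia, 8.59 and 8.65 against 8.26, 8.06 and 8.05 in experiment 1, and 8.72 and 8.41 against 8.27, 8.31 and 8.15 in experiment 2, a mean change of -0.42 ± 0.07 log2 units (SE; adjusted p = 6.2e-05) with no overlap in any set. Nek2 stood at -0.31 and Tacc3 at -0.23. The call of Tacc3 was lost without 11 of the 15 arrays taken singly (adjusted p up to 0.11) and with the replicate block (0.073).

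All 3 passenger genes fell. Birc5 read 8.84 and 8.84 in the chamber controls against 8.07, 8.22 and 8.06 in chamber hypoxia, 8.35 and 8.55 against 7.99, 8.25 and 8.04 in experiment 1, and 8.73 and 8.54 against 8.19, 8.24 and 8.19 in experiment 2, a mean change of -0.50 ± 0.06 log2 units (SE; adjusted p = 1.3e-06). The hypoxia values of Birc5 lie below their controls in each set, as do those of Incenp and Aurkb. Incenp changed by -0.54 (chamber), -0.31 (experiment 1) and -0.23 (experiment 2), a mean of -0.36 ± 0.06 log2 units (SE; adjusted p = 0.00012), and Aurkb by -0.25 on the mean. At the centromere the fall of Cenpa was among the deepest in hypoxia. Cenpa read 6.75 and 7.11 in the chamber controls against 6.48, 6.54 and 6.38 in chamber hypoxia, 6.86 and 6.81 against 6.06, 5.98 and 5.44 in experiment 1, and 6.86 and 6.87 against 6.30, 6.26 and 6.22 in experiment 2, a mean change of -0.69 ± 0.09 log2 units (SE; adjusted p = 3.9e-06). Kif2c changed by -0.62 (chamber), -0.44 (experiment 1) and -0.06 (experiment 2), a mean of -0.38, and Cenpe did not pass (-0.07). Of the chromosome structure genes only Smc2 passed at -0.54 (chamber), -0.13 (experiment 1) and -0.19 (experiment 2), with a mean of -0.29 ± 0.10 log2 units (SE; adjusted p = 0.029), and its call was lost without 7 of the 15 arrays taken singly. Mki67 read 7.51 and 7.59 in the chamber controls against 6.79, 7.37 and 7.16 in chamber hypoxia, 7.49 and 7.54 against 7.07, 7.61 and 7.10 in experiment 1, and 7.29 and 7.49 against 7.43, 7.58 and 7.52 in experiment 2, so the groups overlapped in experiments 1 and 2 but not in the chamber. The mean gave no call (-0.20, adjusted p = 0.19). Top2a (-0.06), Smc4 (-0.12), Kif4 (-0.02) and Kif22 (-0.17) did not pass.

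The spindle checkpoint split in hypoxia. Mad2l1 read 8.84 and 8.81 in the chamber controls against 7.89, 8.10 and 8.32 in chamber hypoxia, 8.26 and 8.21 against 7.62, 7.82 and 7.45 in experiment 1, and 8.34 and 8.61 against 7.96, 8.05 and 8.15 in experiment 2, a mean change of -0.58 ± 0.09 log2 units (SE; adjusted p = 2.5e-05) with no overlap in any set. Ttk fell by 0.38 and Bub3 by 0.29, but Bub1 rose. Bub1 read 7.28 and 6.96 in the chamber controls against 7.10, 7.35 and 7.36 in chamber hypoxia, 6.81 and 6.76 against 7.24, 7.71 and 7.41 in experiment 1, and 6.80 and 7.14 against 7.35, 7.50 and 7.58 in experiment 2. Hypoxia arrays lay above the controls in experiments 1 and 2 and overlapped them in the chamber set, and the mean change was 0.44 ± 0.10 log2 units (SE; adjusted p = 0.00089). With the mean of its 3 probe sets the call was lost (0.18, adjusted p = 0.059). Among anaphase genes Cdc20 changed by -0.86 (chamber), -0.58 (experiment 1) and -0.39 (experiment 2), with every hypoxia array below its controls and a mean of -0.61 ± 0.07 log2 units (SE; adjusted p = 5.3e-07). Pttg1 (-0.09) and Ube2c (0.01) did not pass. Of the spindle genes Stmn1, Kifc1 (-0.31) and Kif11 (-0.22) fell and Nusap1 (-0.03) did not pass. Kifc1 changed by -0.50 (chamber), -0.43 (experiment 1) and -0.00 (experiment 2). Kif11 lost its call without 8 of the 15 arrays taken singly and with the replicate block (adjusted p = 0.096).

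Cytokinesis genes went in both directions. Kif23 read 8.24 and 8.48 in the chamber controls against 7.52, 7.54 and 7.63 in chamber hypoxia, 7.74 and 7.78 against 6.80, 7.09 and 6.78 in experiment 1, and 7.79 and 8.02 against 7.52, 7.61 and 7.47 in experiment 2, a mean change of -0.68 ± 0.08 log2 units (SE; adjusted p = 1.2e-06). Its partner Racgap1 fell as well, changing by -0.76 (chamber), -0.59 (experiment 1) and -0.42 (experiment 2), a mean of -0.59 ± 0.06 log2 units (SE; adjusted p = 2.1e-07). In both genes the hypoxia arrays of each set lay below the controls. Anln rose. Anln read 8.75 and 8.53 in the chamber controls against 8.67, 8.97 and 9.03 in chamber hypoxia, 8.14 and 7.86 against 8.48, 8.90 and 8.61 in experiment 1, and 8.25 and 8.50 against 9.04, 8.98 and 8.88 in experiment 2. The mean change of Anln was 0.50 ± 0.10 log2 units (SE; adjusted p = 0.00028), with no overlap in experiments 1 and 2 and with overlap in the chamber set. Ect2 (0.04), Prc1 (0.01) and Kif20a (-0.11) did not pass.

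The 3 hypoxia sets differed in how many genes passed. In the chamber set 25 fell and none rose (median -0.45; 15.1% of all genes lower, 7.96% higher). In experiment 1, 15 fell and 2 rose (median -0.25; 10.7% lower and 7.57% higher), and in experiment 2, 7 fell and 2 rose (median -0.12; 7.79% lower and 7.55% higher). Genes called lower in each of the 3 sets were Cenpa, Cdc20, Birc5, Racgap1, Cks1b, Foxm1 and Stmn1, 7 of 40, against 4.65% of all genes. A lower value in all 3 sets, called or not, was found for 26 genes (24.2% of all genes), and a higher one for Anln and Bub1 (20.4%). Across the 40 genes the changes correlated between sets at r = 0.761 (chamber and experiment 1), 0.750 (chamber and experiment 2) and 0.827 (experiments 1 and 2), as a description, since the genes share arrays and are not independent points. The counts of single sets depended on single controls: 14 in the chamber set without control 2 and 16 without control 1, 7 and 11 in experiment 1 without control 2 or control 1, also 11 without its hypoxia array 1 or 3, and 1 in experiment 2 without control 1.

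**Figure D3:**
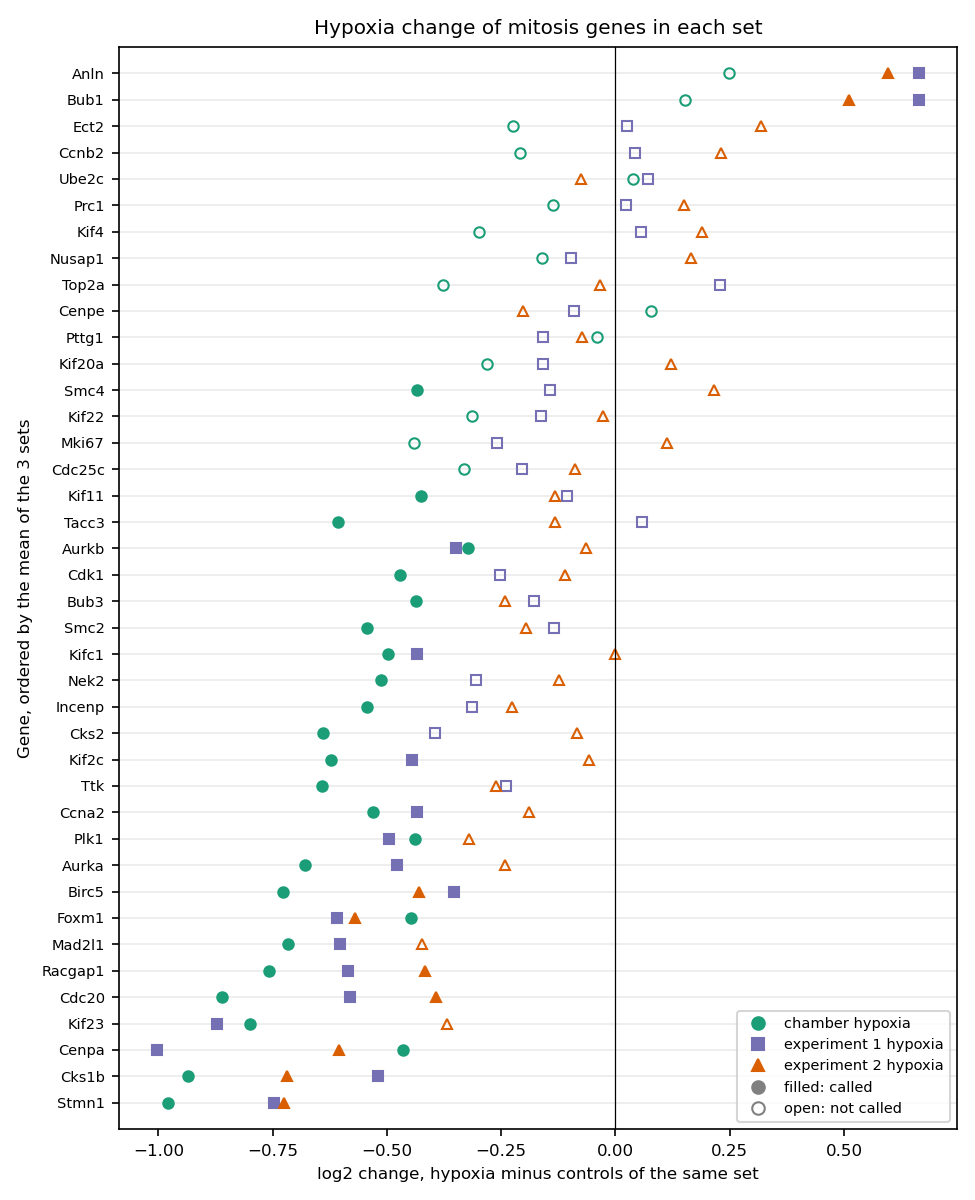
Log2 change in hypoxia minus the controls of the same set (horizontal axis) for 40 genes (vertical axis, ordered by the mean of the 3 sets), with a circle for the chamber set, a square for experiment 1 and a triangle for experiment 2; filled symbols passed the test. Most symbols lie left of 0, with Stmn1 lowest on the mean, and Anln and Bub1 are the only genes with all 3 symbols right of 0.

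Those differences between sets were tested directly. Chamber minus incubator hypoxia was called for 0 of the 40 genes with limma, while 2.16% of all genes differed. The median difference was -0.28, and it was negative for 35 of 40 genes. At an unadjusted p under 0.05, 9 genes passed (21% of all genes). After adjustment 10 passed with array weights (22.7% of all genes) and 4 with only the arrays of the hypoxia sets in the model (12.5%), so these shares are near those over all genes. The interval of the difference for Tacc3, the gene with the lowest value (-0.57), was -0.93 to -0.21. Experiment 1 minus experiment 2 was called for 0 of 40 genes as well (0.327% of all genes), with 2 at an unadjusted p under 0.05 (8.73% of all genes), with a median of -0.14. A p that misses the threshold does not show that the sets act alike.

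CoCl2 was then set against hypoxia, each relative to its own controls, with no control array in common. The change was lower with CoCl2 for 34 of the 40 genes and higher for none (16% and 9.33% of all genes), and the median difference was -2.06 log2 units. The 6 deepest differences were those of Mki67 (-4.11 ± 0.20, adjusted p = 2.5e-12), Top2a (-3.89), Anln (-3.47), Ect2 (-3.20), Nusap1 (-3.12) and Ccnb2 (-2.98). On the hypoxia mean Anln rose and the other 5 were not called. In the chamber set alone every hypoxia array of those 5 lay below both controls, with changes of -0.44 for Mki67, -0.38 for Top2a, -0.22 for Ect2, -0.16 for Nusap1 and -0.21 for Ccnb2, none of them called. Across the 40 genes the size of the fall with CoCl2 did not follow that in hypoxia (r = 0.03, rho = 0.02, given as a description). The number stayed at 34 without any single array. Agent and set cannot be told apart here, since CoCl2 was used in experiment 3 alone.

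The 6 genes with no call for the difference were Foxm1, Plk1, Kifc1, Pttg1, Cenpe and Ube2c. Foxm1 changed by -0.54 in hypoxia and -0.37 with CoCl2, and the interval of the difference was -0.10 to 0.44. For Kifc1 the changes were -0.31 and -0.44 (interval of the difference -0.46 to 0.21). For Pttg1 they were -0.09 and -0.25 (interval -0.40 to 0.09). Plk1 gave -0.42 and -0.47 (interval -0.33 to 0.23) on the probe set used, while its other probe sets were lower with CoCl2 by 0.88 and 0.76 (adjusted p = 0.00016 and 0.0061). For Cenpe and Ube2c the intervals of the difference were -0.33 to 0.48 and -0.27 to 0.26. On the probe sets used, the intervals of these 6 genes leave out a difference of 1 log2 unit in either direction. This does not hold for the other sets of Plk1, whose differences had standard errors of 0.15 and 0.19. For Ube2c, whether its set follows the transcript was not tested.

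**Figure D4:**
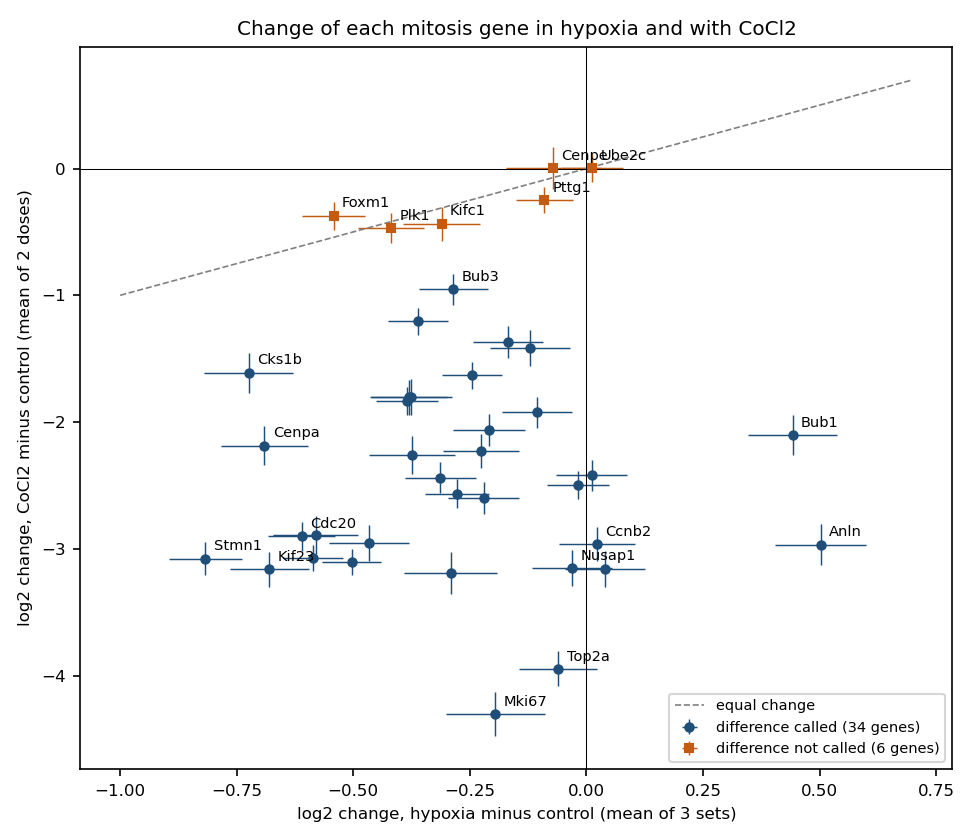
Log2 change in hypoxia (horizontal axis, mean of 3 sets) against log2 change with CoCl2 (vertical axis, mean of 2 doses) for 40 genes, with standard errors as bars and a dashed line of equal change; the axes have different scales. Blue circles are the 34 genes whose difference passed the test, all below the line, and orange squares are the 6 that did not pass.

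Untreated levels in experiment 3 were not those of the other sets. Both of its controls lay above all 6 other controls for 23 of the 40 genes (20.6% of all genes) and below them for Cks1b, Pttg1, Foxm1 and Stmn1 (16.5% of all genes). The median difference over the list was 0.42 log2 units, beside -0.02 over all genes. Mki67, for example, read 8.55 and 8.29 there, against 7.51 and 7.59 in the chamber controls, 7.49 and 7.54 in experiment 1 and 7.29 and 7.49 in experiment 2. The CoCl2 change of this gene was -4.30, the deepest of the list. Smc4 read 9.17 and 9.01 in the controls of experiment 3, against 8.15 to 8.68 in the other controls. With CoCl2 it read 7.18 and 7.67 at 100 µM and 8.12 and 7.76 at 200 µM. The part of the control levels in the CoCl2 changes was not tested. For Foxm1 the gap goes the other way, and its level in the controls of experiment 3 (8.29 and 8.41) lies within the range of the hypoxia arrays of the other sets. The same holds for Stmn1 (9.04 and 8.88, within 8.84 to 9.33). Cks1b in these controls (8.08 and 8.48) lies below every hypoxia array (8.51 to 8.97).

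Other genes of the pathway were read from 4 lists. Over all genes 23% fell and 23.3% rose with CoCl2 (median 0.12), and 19.5% fell and 12.6% rose in hypoxia (median 0.01). Of 23 further kinetochore and spindle genes measured, 15 fell and 2 rose with CoCl2 (median -0.53), and 9 fell and 3 rose in hypoxia (median -0.12), where 3 of 23 is near the share over all genes. The microcephaly gene Aspm (-2.74; adjusted p = 1.6e-13), the mitotic regulator Cdca3 (-2.31) and the kinetochore gene Cenpk (-2.30) fell most with CoCl2, and the kinetochore gene Zwint went the other way and rose by 1.17. Cdca8, the fourth member of the passenger complex, fell by 2.28 with CoCl2 and by 0.62 in hypoxia. Of 14 cohesin, condensin and chromatin genes 11 fell and none rose with CoCl2 (median -0.83), led by lamin B1 (Lmnb1, -2.70), Hmgb2 (-2.59) and the condensin subunit Ncaph (-2.21). In hypoxia 4 of these fell and the cohesin gene Rad21 rose (median -0.16), out of 14.

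The same shares over all genes stand beside the remaining lists (23% lower and 23.3% higher with CoCl2, 19.5% and 12.6% in hypoxia). Of 13 genes of the anaphase-promoting complex and related proteolysis, 6 fell and Cdc26 rose with CoCl2 (median -0.18), and 5 fell in hypoxia (median -0.10). Anapc5 (-1.04), the partner enzyme Ube2s (-0.97) and Anapc11 (-0.82) had the largest CoCl2 changes of this list. Of 26 regulators, 16 fell and 2 rose with CoCl2, and 14 fell and 6 rose in hypoxia (medians -0.45 and -0.21). The pocket protein Rbl1 (-2.88; adjusted p = 5.1e-14), the checkpoint kinase Chek1 (-2.71) and the E2F partner Tfdp1 (-2.50) fell most with CoCl2. All 3 fell in hypoxia too, by 0.56, 1.06 and 1.01. The Cdk inhibitor Cdkn1a (p21) rose by 1.68 with CoCl2 and 1.85 in hypoxia. Wee1, the kinase that restrains Cdk1, rose by 0.50 in hypoxia and fell by 0.95 with CoCl2. Cdkn1a and Wee1 were chosen after their values were seen, as were Cdca8 and Zwint.

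Of the 40 genes 12 had further probe sets, and those disagreed for some. A second set of Mki67 changed by 0.27 with CoCl2 (adjusted p = 0.13), that of Stmn1 by 0.28, that of Incenp by 0.29, that of Nusap1 by -0.08 and that of Bub3 by -0.07; none of these passed. Of these genes, Mki67, Stmn1 and Incenp thus had opposite signs on their sets. Each of these other sets read lower in the controls of experiment 3 than the set used. The means were 5.08 against 8.42 for Mki67, 4.24 against 8.96 for Stmn1 and 5.28 against 7.02 for Incenp. They were 4.80 against 8.34 for Nusap1 and 3.90 against 9.97 for Bub3. In hypoxia the other sets of Bub1, which rose on the set used, changed by -0.13 and 0.22 and were not called. Their mean levels over all arrays were 3.49 and 3.43, against 6.98 for the set used. For Stmn1, Incenp and Bub3, which fell in hypoxia on the sets used, the other sets were not called either. They changed by -0.12, -0.01 and -0.09 (adjusted p = 0.47, 0.98 and 0.35). The other sets of Plk1 changed in hypoxia by -0.58 (called) and -0.19 (not called). Those of Foxm1 (-0.45) and Cdc25c (-0.28) were called lower. Which set reads the transcript was not tested. With CoCl2, second sets moved with the first for Kif20a (-3.35 against -1.92 on a family set), Cdc25c (-1.83 against -2.06) and Foxm1 (-0.51 against -0.37). Bub1 fell with CoCl2 on each of its 3 sets.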

How the data were processed

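Total RNA of B16-F10 cells was hybridised to 21 Affymetrix U74Av2 arrays. The authors deposited log2 values per probe set, made with GCOS 1.2 and RMA per the submitters' processing notes. Whether 1 RMA run covered all arrays is not given in the sources used here. No step of normalisation was added to the deposited log2 values, and per array medians lay between 5.44 and 5.53.

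Of 12488 probe sets, 10833 outside the 66 controls were annotated to 1 gene, and the set with the highest mean stood for each of 8251 genes. Group means of all 21 arrays (9 groups) were fitted with limma 3.58.1 in R 4.3.3 (lmFit, contrasts, eBayes, 12 residual degrees of freedom), with Benjamini-Hochberg adjustment over all genes and calls at an adjusted p under 0.05. The scripts were tested on simulated data. Alternatives changed normalisation, probe set choice, filter, moderation, array weights, covariates, the arrays used and single arrays.

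All measured members are accounted for. Per role, the 2 with the largest CoCl2 change and the 2 with the largest hypoxia change have values, as do members not called with CoCl2 or called higher anywhere, and up to 3 called genes of each other list. Members and lists were chosen with earlier results of these data known. Deviations of same-numbered arrays from their group means correlated at -0.370 to 0.235. In a group of 2 arrays the deviations mirror each other, so these values cannot show whether arrays were paired. The labels name no pairs, and numbers were not used as pairs. Promoters of 8 measured members (Stmn1, Aurkb, Incenp, Ccna2, Cdc25c, Foxm1, Kif20a, Smc4) were not analysed here.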

Additional observations from a re-analysis of the deposited data

How the results depend on the processing

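Groups of 2 or 3 arrays, 1 cell line and 24 h limit these results, and CoCl2 was used in 1 experiment alone. Under the settings run, no called member changed sign for the hypoxia mean, the CoCl2 mean or their difference. Single other probe sets did have the opposite sign without a call. These were sets of Mki67, Stmn1 and Incenp (CoCl2 mean, and the difference at 0.21, 0.40 and 0.29), of Bub3 (the difference, 0.03) and of Bub1 (hypoxia). The number of members called moved by over 1.5 times as follows, and the cause was not tested. Experiment 1 hypoxia gave 11 with each array centred on its median (17 reported). Chamber hypoxia gave 16 with quantile normalisation (25 reported). The dose step gave 1 with array weights, 1 with only the compared arrays, 0 with the Actb covariate and 2 with a Gapdh covariate, the latter added after seeing the data (10 reported). Chamber minus incubator gave 10 with array weights and 4 with only the compared arrays (0 reported). Hypoxia over experiments 1 and 2 only, also added, gave 15 (27 reported).

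Leaving out 1 array at a time gave 23 to 28 for the hypoxia mean, 14 to 22 for the chamber (25 reported), 7 to 20 for experiment 1, 1 to 8 for experiment 2 (9 reported), 35 to 38 for the CoCl2 mean, 34 to 38 at 100 µM, 34 to 36 at 200 µM, 34 for CoCl2 minus hypoxia, 4 to 13 for the dose step and 0 to 1 for chamber minus incubator. With the replicate block, where the number is not a known pairing, the calls were 24 for the hypoxia mean, 37 for the CoCl2 mean, 38 at 100 µM, 37 at 200 µM, 34 for the difference and 10 for the dose step.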
